A study of Sus scrofa with 32 samples.

Results

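The deacetylases examined here are 10 genes of the pig genome: the class I genes HDAC1, HDAC2, HDAC3 and HDAC8, the class IIa genes HDAC4, HDAC5, HDAC7 and HDAC9, and the sirtuins SIRT1 and SIRT2. They were chosen as members of these families, not by a threshold on their values in a contrast, though with earlier results of these data known. Other deacetylases are described as a list further below. The genes make up 10 of the 19550 protein-coding genes on placed chromosomes of the pig build Sscrofa11.1. For each gene, every listed peak overlapping the gene span extended by 5 kb at both ends was collected, and the length of DNA under peaks was summed. The series holds 32 CUT&Tag samples labelled as muscle satellite cells of the pig, which are the precursors that regenerate skeletal muscle fibres. CUT&Tag is an assay in which a transposase tethered to an antibody tags the DNA beside a chosen histone mark. The 24 libraries used here cover H3K4me3, a mark of active promoters, H3K27ac, a mark of active promoters and enhancers, and H3K27me3, a mark of Polycomb-silenced genes, and the 8 IgG samples were not analysed here.

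Each mark had 4 groups of 2 libraries. The WT 0 h group was untreated proliferating cells, and the CBP 0 h group was proliferating cells given SGC-CBP30 for 48 h. The WT 60 h group was untreated cells in differentiation, and the CBP 60 h group was cells labelled as differentiating that were given SGC-CBP30 for 60 h. SGC-CBP30 binds the acetyl-lysine reader domain (bromodomain) of CBP and p300, so "CBP" in a group name stands for the inhibitor and "WT" for its absence, and no genetic change is given for any group. The labels give the dose as 5 with the unit uM/ml, which cannot be read as a concentration without a guess. The labels also conflict: the growth protocol and cell line entries name C3H cells in RPMI beside the pig and satellite cell entries, and the treatment entry says proliferation for the 60 h samples too, so time was taken from the sample titles. Nothing states that replicates are separate cultures, so p-values measure only the spread between these libraries, which may be technical.

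Histone deacetylases remove acetyl groups from lysines of histones and other proteins. Class I enzymes are largely nuclear: HDAC1 and HDAC2 work as a pair in the Sin3, NuRD and CoREST corepressor complexes, and HDAC3 works in the NCoR and SMRT complexes. Class IIa enzymes have little catalytic activity of their own on acetyl-lysine and act by binding transcription factors. In muscle they bind MEF2, hold back MEF2 target genes, and leave the nucleus when kinases such as CaMK phosphorylate them and 14-3-3 proteins bind the phosphorylated form. Sirtuins are a separate family that uses NAD+ as cosubstrate, with SIRT1 mainly nuclear and SIRT2 mainly cytoplasmic. In the textbook account, myoblasts hold muscle genes deacetylated until they leave the cell cycle.

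The peak lists of the 24 libraries differed in length, which bears on every value below. H3K4me3 lists held 14898 to 17364 peaks, H3K27ac lists 8969 to 23437 and H3K27me3 lists 1338 to 19317. The genome length under peaks (mean ± SD, n = 2) was 21.9 ± 0.188 Mb in WT 0 h, 17.3 ± 0.0940 Mb in CBP 0 h, 26.97 ± 0.600 Mb in WT 60 h and 27.6 ± 0.0832 Mb in CBP 60 h for H3K4me3, and 12.3 ± 0.975, 5.53 ± 1.08, 19.1 ± 1.60 and 10.5 ± 1.74 Mb in that order for H3K27ac. How many reads each library had is not known here, and the part of depth in these differences was not tested. Among markers of cell type, the H3K4me3 length over the 6 satellite cell and myoblast genes was 21.9 to 22.5 kb in WT 0 h and 10.5 to 10.6 kb in CBP 0 h, where MYOD1 was at 0. H3K4me3 was listed at 1 of the 5 differentiating muscle genes in the table (TTN) in WT 0 h and at 5 of 5 in WT 60 h. Over those 5 genes it covered 20.0 kb in each WT 60 h library against 8.96 and 10.4 kb in CBP 60 h. Fibroblast genes carried H3K4me3 too, at 4 of 5 in WT 0 h with DCN at 0, while PECAM1, CDH5, KDR and TIE1 of endothelium and PTPRC, CD3E and CSF1R of blood had none in any group. The other 2 of the 5 blood genes had some: CD79A covered 2.65 to 4.37 kb of H3K4me3 over the 8 libraries, and SPI1 0.841 to 1.03 kb at 60 h. H3K27ac was listed at CDH5 (0.306 to 0.434 kb in WT 0 h), PECAM1 (up to 0.696 kb, at 60 h) and CSF1R (0.452 to 0.664 kb at 60 h). KDR, TIE1, PTPRC and CD3E had no H3K27ac in any group. Of 5 adipocyte genes, PPARG alone carried H3K4me3 in WT 0 h, and it covered 0.914 to 1.36 kb over the 8 libraries. ADIPOQ and FABP4 had no H3K4me3 in any group. The part of cell makeup in the results below was not tested. In such bulk samples, fewer cells carrying a mark and less of the mark per cell cannot be told apart.

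H3K4me3 was listed at all 10 deacetylase genes in all 8 libraries, at 1 region or more each. H3K27ac was listed at 9 of the 10, with HDAC8 at 0 in all 8 libraries, and H3K27me3 at HDAC9 alone. When peaks of the 8 libraries were merged wherever they overlapped by at least 1 bp, the 10 genes held 25 H3K4me3 regions, 52 H3K27ac regions and 2 H3K27me3 regions. Of these, 13 H3K4me3 regions and 4 H3K27ac regions were seen in all 8 libraries. The 4 constant H3K27ac regions lay at the high-coordinate end of HDAC2 and inside HDAC4, HDAC7 and HDAC9. With the inhibitor at 0 h, 9 of the 52 H3K27ac regions and 4 of the 25 H3K4me3 regions were seen in both WT libraries and in neither CBP library, and none the other way. With differentiation in WT, 12 H3K27ac regions appeared in that sense and 5 disappeared. With lists of equal length these H3K27ac counts were 3 gained and 5 lost for the inhibitor at 0 h, and 4 gained and 7 lost for differentiation in WT, of 29 regions. The share of regions over the whole genome that changed in this sense was not counted. The H3K27ac lists as a whole covered 12.3 Mb in WT 0 h, 5.53 Mb in CBP 0 h and 19.1 Mb in WT 60 h, so these counts cannot be told from that general change.

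The classes differed in where the regions lay. In class I, 6 of 9 H3K4me3 regions and 5 of 6 H3K27ac regions lay within 1 kb of an end of the gene, and none lay inside a gene more than 1 kb from both ends. In class IIa, 9 of 14 H3K4me3 regions and 35 of 39 H3K27ac regions lay inside the gene, over 1 kb from both ends. The sirtuins had both of their H3K4me3 regions and 5 of 7 H3K27ac regions at gene ends. The class IIa genes are also longer: their 4 windows add up to 1424 kb, against 364 kb for the 4 class I windows. HDAC9 alone spans a window of 1038 kb and held 19 of the 39 class IIa H3K27ac regions. HDAC5 and HDAC7 have windows of 51.6 and 45.5 kb, beside the 45.6 kb of HDAC1. They had 2 of 3 and 5 of 7 H3K27ac regions inside. Many class IIa H3K27ac regions were seen in 1 library only, 15 of 39, against 1 of 6 in class I. Most of those inside HDAC7 were among these 15. HDAC8, the class I gene with a window of 250.5 kb, had no H3K27ac region at all. The part of gene length in where the regions lay was not tested. This is a description of 8 genes, with no test.

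**Figure D1:**
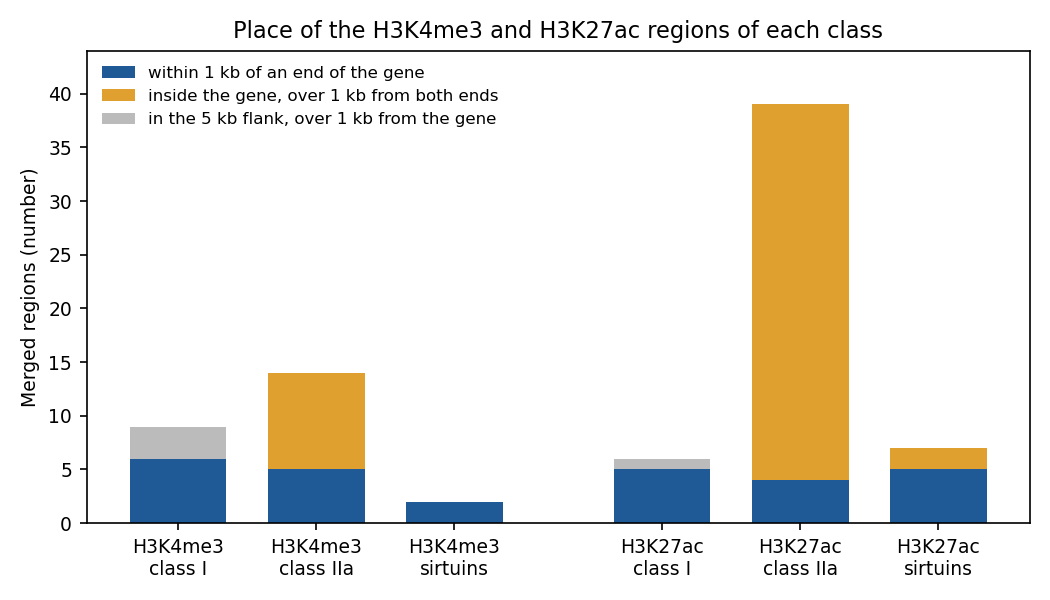
Number of merged H3K4me3 and H3K27ac regions (vertical axis) in the extended spans of the 4 class I genes, the 4 class IIa genes and the 2 sirtuins, split by place relative to the gene. Class IIa had 35 of 39 H3K27ac regions inside the gene, and class I had 0 of 6. Of the 39, 15 were seen in 1 library only.

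Among the class I genes, HDAC2 carried some of the highest-ranked peaks of the WT 60 h lists. HDAC2 (chr1:79867713-79901597) has no other gene in its window, and each mark formed 1 region at its high-coordinate end. By the deposited -log10 p, its H3K4me3 peak ranked 5 of 16221 and 2 of 16139 in the WT 60 h lists, and its H3K27ac peak ranked 11 of 23437 and 13 of 21694. In the other 6 libraries its ranks were 18 to 347 for H3K4me3 and 60 to 1559 for H3K27ac. The H3K4me3 region covered 3033 and 2982 bp in WT 0 h, 2072 and 2052 bp in CBP 0 h, 3317 and 3213 bp in WT 60 h, and 3349 and 3206 bp in CBP 60 h. The CBP 0 h libraries thus lay below all 6 others, and the 60 h groups overlapped. The fall in CBP 0 h was -0.45 ± 0.04 on the log2 scale of bp + 500 (SE, limma, adjusted p = 0.00058), where the median of all genes tested was -0.19. H3K27ac covered 845 and 879 bp in WT 0 h, 289 and 248 bp in CBP 0 h, 1854 and 1651 bp in WT 60 h, and 786 and 806 bp in CBP 60 h. No group pair overlapped in any of the 4 comparisons: H3K27ac fell with SGC-CBP30 by 0.83 at 0 h (adjusted p = 0.00292) and by 0.80 at 60 h (adjusted p = 0.00202), and rose from 0 h to 60 h by 0.72 in WT (adjusted p = 0.0023) and by 0.75 in CBP (adjusted p = 0.00295). The medians of all genes tested were -0.46, -0.72, 0.69 and 0.36 in the same order, so that the fall at 0 h and the rise in CBP lay farther from the median than the other changes. Of 19 alternative settings, 16 kept the call of each fall and of the rise in CBP, and 18 that of the rise in WT. Both falls and the rise in CBP were lost with lists of equal length. Both falls were also lost after quantile scaling, which gives the libraries of a mark 1 common distribution.

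HDAC1 (chr6:88749611-88785220) showed H3K27ac almost only in untreated differentiating cells. The length in its window was 0 bp in both WT 0 h and both CBP 0 h libraries, 4423 and 3501 bp in WT 60 h, and 275 and 0 bp in CBP 60 h. WT 60 h stood apart from the other 6 libraries. The difference between CBP 60 h and WT 60 h was -2.83 ± 0.23 log2 (adjusted p = 0.000473, median of all genes -0.72), lower than in all but 0.321% of the genes tested. The rise from 0 h to 60 h in WT had an adjusted p of 0.000265. Only in WT 60 h did both libraries reach 200 bp, so this difference, its rank and the rise were bound up with the choice of genes tested. With groups at or near 0 bp, the sizes of both changes depend on the 500 bp added before the logarithm. Much of this length lay in the upper flank, where the span of the neighbouring MARCKSL1, an actin-regulating protein gene, starts at 88785412. The longest region overlapped MARCKSL1 and ran on past the end of the window. Over its full length it covered 3977 and 1978 bp in WT 60 h, and 311 and 0 bp in CBP 60 h. The region at HDAC1's low-coordinate end, far from MARCKSL1, covered 588 and 972 bp in WT 60 h and 0 bp in the other 6 libraries. A second one, at the high end and within 1 kb of MARCKSL1, covered 579 and 746 bp in WT 60 h and 0 bp elsewhere. With the gene span alone and no flank, the difference at 60 h was -1.89 (adjusted p = 0.00018). Only WT 60 h held any base there, so this value too was bound up with that choice.

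H3K4me3 at HDAC1 did not follow that pattern. At the low-coordinate end it covered 1089 and 1156 bp in WT 0 h, 1298 and 1622 bp in CBP 0 h, 1763 and 1656 bp in WT 60 h, and 1757 and 1710 bp in CBP 60 h, so that this end was marked before H3K27ac was listed there. Over the whole window H3K4me3 rose from 0 h to 60 h by 0.51 ± 0.10 in WT (adjusted p = 0.00797) and by 0.61 ± 0.10 in CBP (adjusted p = 0.00178). Without the flanks that hold MARCKSL1 the rises were 0.41 (adjusted p = 0.0959) and 0.07 (adjusted p = 0.728). Without the first WT 60 h library the rise in WT was 0.41 (adjusted p = 0.051). The 2 inhibitor comparisons gave -0.17 (adjusted p = 0.219) at 0 h and -0.07 (adjusted p = 0.693) at 60 h.

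**Figure D2:**
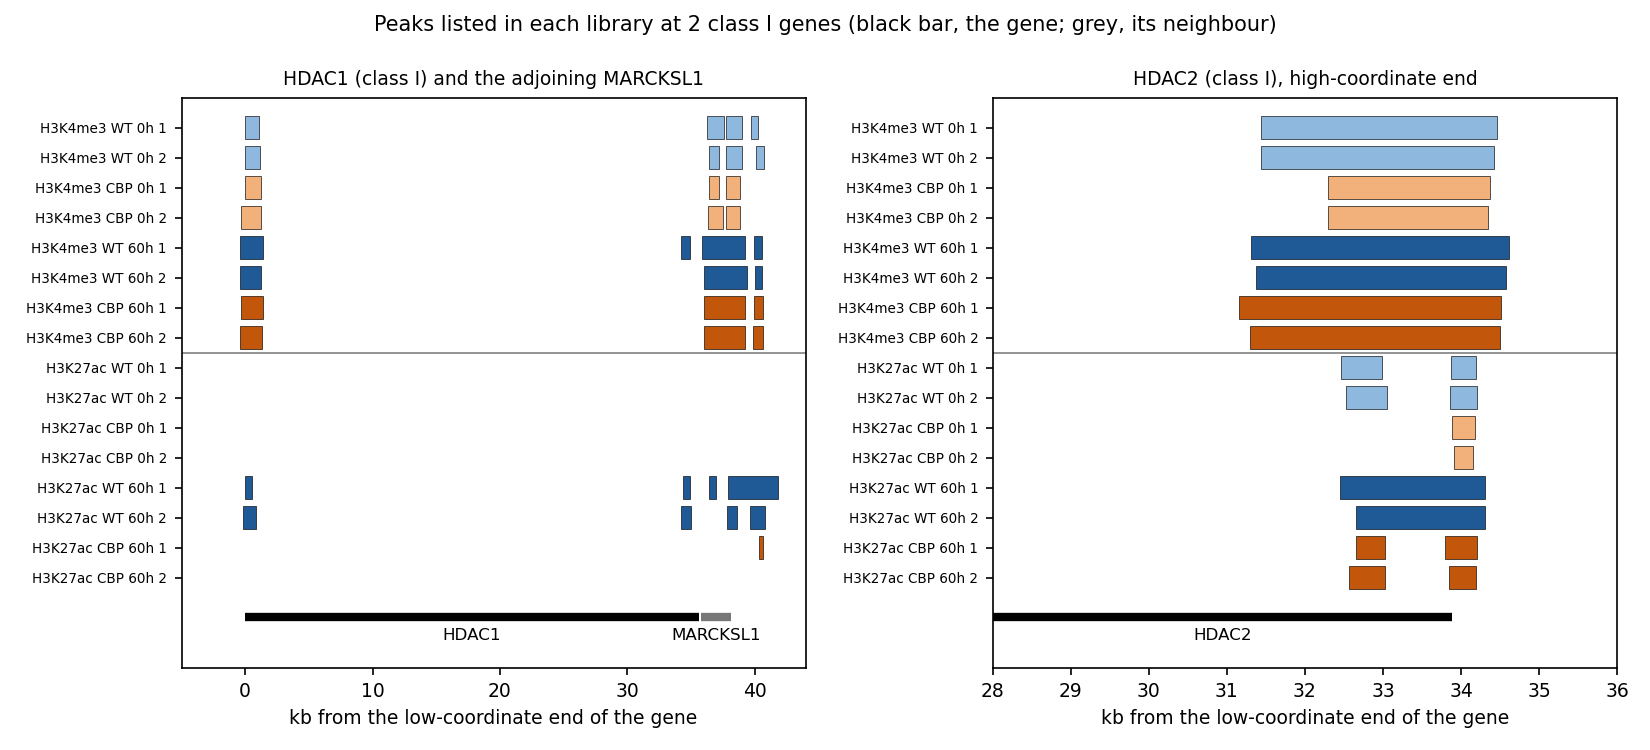
Peaks listed in each of the 16 H3K4me3 and H3K27ac libraries (rows) at HDAC1 with its neighbour MARCKSL1 and at the high-coordinate end of HDAC2, drawn to scale in kb from the low-coordinate end of the gene. H3K27ac at the low end of HDAC1 appears in the 2 WT 60 h libraries alone, while HDAC2 carries both marks in every library.

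HDAC3 (chr2:143273188-143287421) lost its listed H3K27ac under the inhibitor at both times. Its only H3K27ac region, at the high-coordinate end beside the RELL2 gene, covered 326 and 416 bp in WT 0 h, 674 and 403 bp in WT 60 h, and 0 bp in all 4 CBP libraries. The adjusted p was 0.012 at 0 h and 0.00344 at 60 h. HDAC3 reached 200 bp in WT libraries alone, so these differences were bound up with the choice of genes tested. At 0 h the call was lost when the second WT library or either CBP library was left out (adjusted p = 0.0547 to 0.0665). H3K4me3 in the HDAC3 window covered 3849 and 3837 bp in WT 0 h, 2975 and 2757 bp in CBP 0 h, 4108 and 4022 bp in WT 60 h, and 4865 and 4411 bp in CBP 60 h. It fell with the inhibitor at 0 h by 0.37 ± 0.06 (adjusted p = 0.00363). One of its 3 regions lies at the end of DIAPH1, a formin gene below HDAC3. In the gene span alone the fall was 0.16, which did not pass the test (adjusted p = 0.159).

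HDAC8 (chrX:58210182-58450681), a class I enzyme that also deacetylates the cohesin subunit SMC3, had 1 marked region in all. This H3K4me3 region at its high-coordinate end covered 1124 and 1344 bp in WT 0 h, 1028 and 1048 bp in CBP 0 h, 1444 and 1361 bp in WT 60 h, and 1261 and 1317 bp in CBP 60 h. The rise from 0 h to 60 h in CBP was 0.22 ± 0.07 (adjusted p = 0.028), below the median rise of 0.44 over all genes, and after quantile scaling, which gives the libraries of a mark 1 common distribution, it was a fall of 0.35 (adjusted p = 0.00621). It missed the threshold when any of the 4 CBP libraries was left out, with an adjusted p of 0.0638 to 0.109. The other 3 comparisons did not pass the test, and no H3K27ac or H3K27me3 base was listed in its window in any library.

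In each of the 4 comparisons, the H3K4me3 change largest in size among the 10 was at a class IIa gene. HDAC4 (chr15:138378237-138657266) binds MEF2 in muscle and brain and has no other gene in its window. Its H3K4me3 covered 2439 and 2127 bp in WT 0 h, 795 and 751 bp in CBP 0 h, 3669 and 3742 bp in WT 60 h, and 2755 and 2850 bp in CBP 60 h. No 2 of these groups overlapped. The fall in CBP 0 h was -1.13 ± 0.06 (adjusted p = 0.000162, median of all genes -0.19), lower than in all but 2.37% of the genes tested. At 60 h the fall was -0.35 ± 0.06 (adjusted p = 0.0136). That call was lost when any of the 4 libraries compared was left out (adjusted p = 0.0539 to 0.0813).

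The regions of HDAC4 changed separately. Beyond its high-coordinate end, a region of 961 and 923 bp in WT 0 h was absent in both CBP 0 h libraries and present at 60 h, with 1255 and 1222 bp in WT and 1251 and 1215 bp in CBP. Inside the gene, 197 kb from its low end, a region of 1377 and 1427 bp was listed in WT 60 h, against 0 and 537 bp in CBP 60 h and 0 bp at 0 h. Within 5 kb of the gene ends, which leaves this region out, the difference between CBP and WT at 60 h was 0.11 (adjusted p = 0.444). H3K27ac in HDAC4 was spread over 10 regions, 9 of them inside the gene, and covered 3318 and 1351 bp in WT 0 h, 1450 and 853 bp in CBP 0 h, 8062 and 7612 bp in WT 60 h, and 6545 and 3951 bp in CBP 60 h. The rise from 0 h to 60 h was 1.65 ± 0.42 in WT (adjusted p = 0.022) and 1.79 ± 0.42 in CBP (adjusted p = 0.0235), above the medians of 0.69 and 0.36. The call in WT was lost without the second WT 0 h library or either WT 60 h library (adjusted p = 0.0796 to 0.0997), and that in CBP without either CBP 0 h library or the first CBP 60 h library (adjusted p = 0.0539 to 0.113). The inhibitor differences in H3K27ac over the whole window, -0.71 at 0 h (adjusted p = 0.301) and -0.57 at 60 h (adjusted p = 0.308), did not pass the test. At the high-coordinate end, however, H3K27ac covered 659 and 617 bp in WT 60 h and 0 bp in the other 6 libraries. Within 5 kb of the gene ends the difference at 60 h was -1.19. HDAC4 reached 200 bp there in WT 60 h alone, so that difference was bound up with the choice of genes tested.

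HDAC9 (chr9:87164400-88192803), the longest of the 10, encodes a class IIa enzyme with a short splice form, MITR, that lacks the catalytic domain and still binds MEF2. Its H3K27ac was highest in proliferating untreated cells, unlike that of HDAC4. H3K27ac covered 7578 and 7587 bp in WT 0 h, 2512 and 1720 bp in CBP 0 h, 4642 and 4110 bp in WT 60 h, and 3415 and 2385 bp in CBP 60 h. Both WT 0 h libraries lay above the 6 others. The fall in CBP 0 h was -1.64 ± 0.21 (adjusted p = 0.00383, median of all genes -0.46). Between 0 h and 60 h in WT it fell by 0.73 ± 0.21 (adjusted p = 0.0318), where the median of all genes was 0.69. That call missed the threshold when any of the 4 WT libraries was left out (adjusted p = 0.0913 to 0.135). At 60 h the inhibitor difference was -0.53 ± 0.21 (adjusted p = 0.089), and without the first CBP 60 h library it was -0.75 (adjusted p = 0.0468).

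Within HDAC9, the strongest H3K27ac peak lay 508 kb from the low end and ranked 59 of 19531 and 26 of 17338 by the deposited -log10 p in the WT 0 h lists. Its region covered 2001 and 2182 bp in WT 0 h and 581 to 967 bp in the other 6 libraries. A region 495 kb from the low end carried both marks. Its H3K4me3 covered 1320 and 1485 bp in WT 0 h, 0 bp in both CBP 0 h libraries, 2530 and 2382 bp in WT 60 h, and 612 and 537 bp in CBP 60 h. Its H3K27ac covered 1087 and 1075 bp in WT 0 h, 0 bp in both CBP 0 h libraries, and 1151 to 1289 bp in all 4 libraries at 60 h. An H3K27ac region at 766 kb was listed in all 4 libraries at 0 h. Another at 773 kb was listed in both WT 0 h libraries, at 582 and 389 bp, and in neither CBP 0 h library. Neither region had a peak at 60 h. HDAC9 had no H3K4me3 at its annotated ends. Its other H3K4me3 region, 62 kb inside, covered 939 to 1485 bp and was listed in all 8 libraries.

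Summed over the window, HDAC9 H3K4me3 covered 2394 and 2424 bp in WT 0 h, 1095 and 1273 bp in CBP 0 h, 3566 and 3431 bp in WT 60 h, and 2097 and 1649 bp in CBP 60 h. Neither inhibitor comparison showed any overlap of the groups. It fell by 0.79 ± 0.10 at 0 h (adjusted p = 0.0016) and by 0.76 ± 0.10 at 60 h (adjusted p = 0.00412), with a difference between the times of 0.03 ± 0.14 (adjusted p = 0.865). HDAC4 and HDAC9 were the genes of the 10 called lower in H3K4me3 at both times. It rose from 0 h to 60 h by 0.46 ± 0.10 in WT (adjusted p = 0.00978) and by 0.49 ± 0.10 in CBP (adjusted p = 0.00369), and without the first WT 60 h library the rise in WT was 0.43 (adjusted p = 0.0602).

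**Figure D3:**
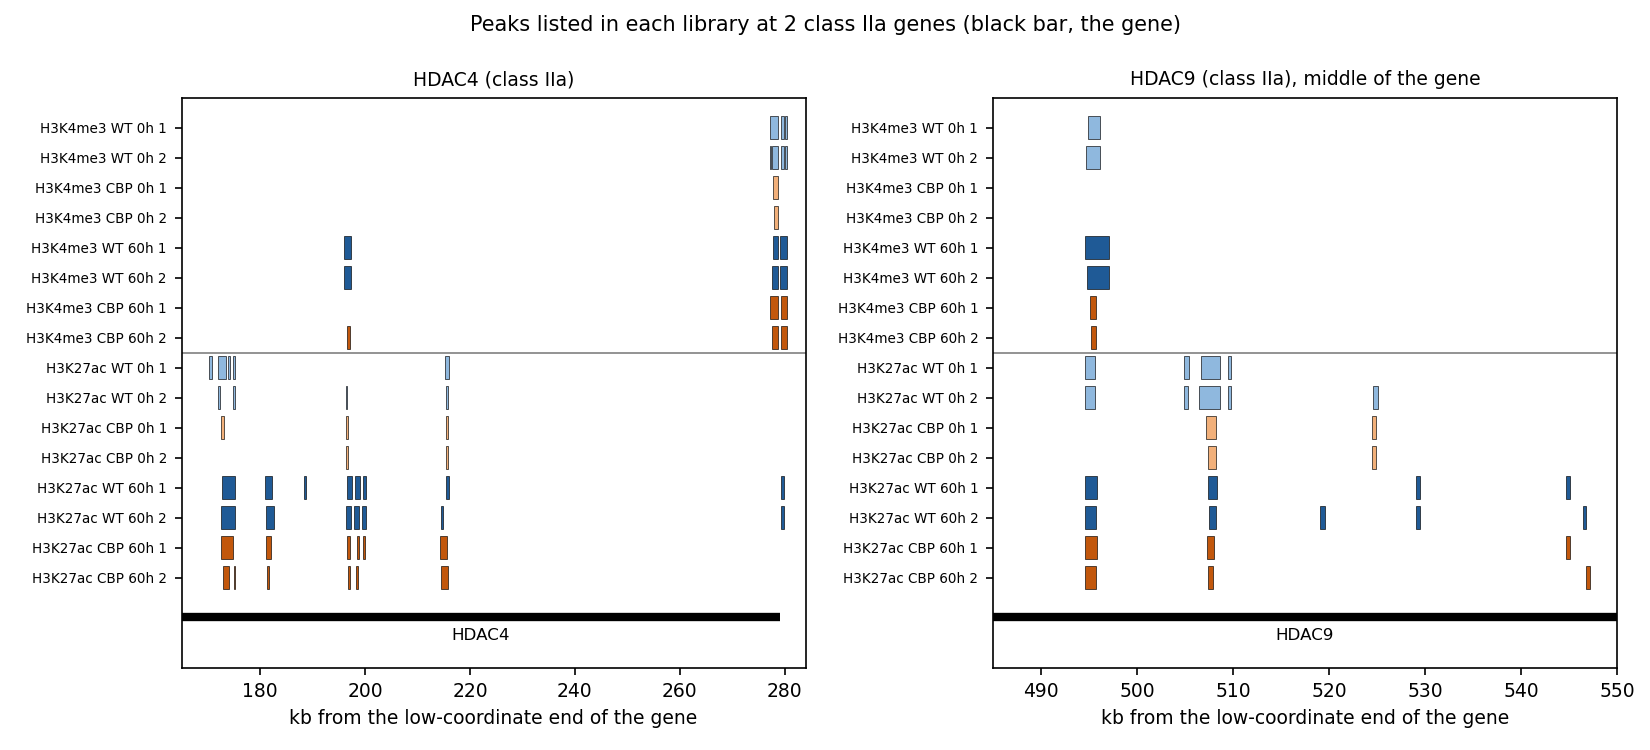
Peaks listed in each of the 16 H3K4me3 and H3K27ac libraries (rows) across the upper part of HDAC4 and the middle of HDAC9, drawn to scale in kb from the low-coordinate end of the gene. H3K27ac regions between 170 and 216 kb of HDAC4 are more numerous at 60 h, and the H3K4me3 region at 495 kb of HDAC9 is missing in both CBP 0 h libraries.

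HDAC5 (chr12:19077910-19119463), another class IIa enzyme exported from the nucleus after phosphorylation, had the largest rise in H3K4me3 with differentiation. It covered 1707 and 2530 bp in WT 0 h, 1172 and 1245 bp in CBP 0 h, 4438 and 4486 bp in WT 60 h, and 5077 and 5448 bp in CBP 60 h. All 4 libraries at 60 h lay above the 4 at 0 h. The rise was 0.94 ± 0.14 in WT (adjusted p = 0.00236) and 1.75 ± 0.14 in CBP (adjusted p = 8.67e-05), against medians of 0.18 and 0.44. The region at its low-coordinate end, shared with C12H17orf53, grew from 1423 and 1610 bp in WT 0 h to 2645 and 2692 bp in WT 60 h. A region 13.7 kb inside grew from 0 and 675 bp to 1399 and 1412 bp. The fall with the inhibitor at 0 h was -0.60 ± 0.14 (adjusted p = 0.0154), and was lost without either CBP 0 h library (adjusted p = 0.0529 and 0.0714). Its H3K27ac, at 1378 and 962 bp in WT 0 h, 528 and 482 bp in CBP 0 h, 1161 and 821 bp in WT 60 h, and 1364 and 626 bp in CBP 60 h, passed the test in no comparison. Of its 3 H3K27ac regions, that inside the gene at 24.4 kb covered 541 and 438 bp in WT 0 h and 0 bp in both CBP 0 h libraries, and in the gene span alone the fall at 0 h was -1.16 (adjusted p = 0.0352).

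HDAC7 (chr5:78150554-78186051), the class IIa gene best known from endothelium and thymocytes, carried less H3K4me3 under the inhibitor at 0 h and more at 60 h. It covered 2887 and 3032 bp in WT 0 h, 2249 and 2229 bp in CBP 0 h, 3131 and 3169 bp in WT 60 h, and 4640 and 4276 bp in CBP 60 h. CBP lay below WT at 0 h and above it at 60 h, with no overlap at either time. The changes were -0.34 ± 0.05 (adjusted p = 0.00298) and 0.44 ± 0.05 (adjusted p = 0.00264), and the difference between them was 0.78 ± 0.07 (adjusted p = 0.000872). Within 5 kb of the gene ends the change at 60 h was 0.27 (adjusted p = 0.0816). H3K27ac of HDAC7 lay mainly 24.9 kb inside the gene, in all 8 libraries. It covered 794 and 281 bp in WT 0 h, 614 and 991 bp in CBP 0 h, 1870 and 1543 bp in WT 60 h, and 3042 and 1113 bp in CBP 60 h, and passed the test in no comparison.

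The sirtuins had small H3K4me3 changes, of at most 0.53 on the log2 scale. SIRT1 (chr14:71091167-71126351), a deacetylase of histones and of MyoD-associated PCAF, had 1 H3K4me3 region at its low-coordinate end, with 2211 and 2539 bp in WT 0 h, 2637 and 2164 bp in CBP 0 h, 2520 and 2515 bp in WT 60 h, and 2854 and 2914 bp in CBP 60 h. The groups overlapped at 0 h, and none of the 4 comparisons passed the test (log2 changes of 0.01 to 0.23, lowest adjusted p = 0.0519). H3K27ac at SIRT1 was 0 bp in all 4 libraries at 0 h, 736 and 373 bp in WT 60 h, and 524 and 0 bp in CBP 60 h, and the rise in WT missed the threshold (adjusted p = 0.0542). SIRT1 reached 200 bp at 60 h alone, so this rise was bound up with the choice of genes tested.

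SIRT2 (chr6:47682427-47703408), a tubulin deacetylase, had its H3K4me3 at the high-coordinate end it shares with NFKBIB. It covered 2220 and 2206 bp in WT 0 h, 2018 and 1954 bp in CBP 0 h, 2588 and 2493 bp in WT 60 h, and 3004 and 3158 bp in CBP 60 h. Between 0 h and 60 h it rose by 0.16 ± 0.04 in WT (adjusted p = 0.0233) and by 0.53 ± 0.04 in CBP (adjusted p = 0.000103). The call in WT was lost without either WT 0 h library or the first WT 60 h library (adjusted p = 0.072 to 0.104), and after quantile scaling the value was -0.0286 (adjusted p = 0.626). CBP lay above WT at 60 h by 0.24 ± 0.04 (adjusted p = 0.0157). That call was lost without either WT 60 h library or the second CBP 60 h library (adjusted p = 0.053 to 0.0833). Its H3K27ac covered 321 and 287 bp in WT 0 h, 0 bp in both CBP 0 h libraries, 2172 and 1230 bp in WT 60 h, and 1307 and 1252 bp in CBP 60 h. It rose from 0 h to 60 h by 1.42 ± 0.21 in WT (adjusted p = 0.0035) and to a similar length in CBP (adjusted p = 0.0022), where the 0 h value of 0 bp makes the log2 change depend on the added 500 bp. The rise in WT was not there with peaks of a -log10 q of at least 5 (-0.0344, adjusted p = 0.98) or with lists of equal length (-0.68, adjusted p = 0.237). At the other end, shared with RINL, all 4 libraries at 60 h had 721 to 776 bp and none at 0 h had any. A region inside the gene covered 565 and 498 bp in WT 60 h and 0 bp in the other 6 libraries.

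**Figure D4:**
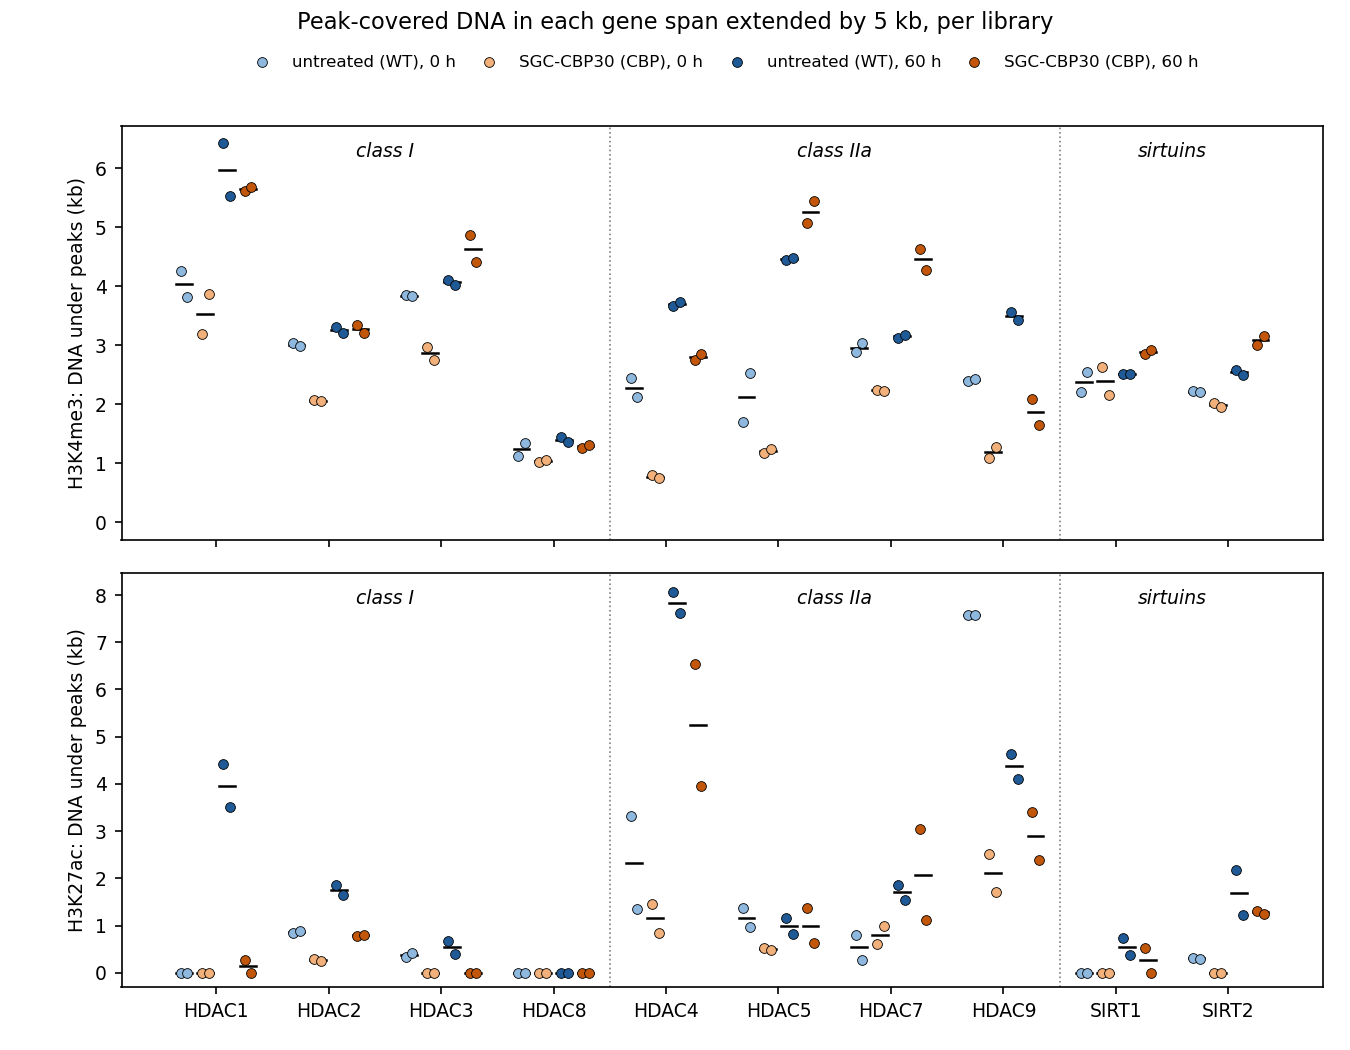
Length under H3K4me3 peaks (upper panel) and H3K27ac peaks (lower panel) in kb per gene, with 1 point per library, 2 libraries per group, and a bar at each mean. HDAC4, HDAC5, HDAC8 and HDAC9 lie below 1.3 kb of H3K4me3 in CBP 0 h. H3K27ac in the HDAC1 window is above 3.5 kb in WT 60 h and below 0.3 kb elsewhere.

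Set against all genes tested, the counts of changed deacetylases were close to the background in most comparisons. With the inhibitor at 0 h, H3K4me3 was lower at 6 of the 10 genes, where 41.7% of the 13394 genes tested were called lower. These were HDAC2, HDAC3 and all 4 class IIa genes. At 60 h, 2 of 10 were higher (HDAC7 and SIRT2) where 10.3% of genes were, and 2 of 10 were lower (HDAC4 and HDAC9) where 7.36% were. From 0 h to 60 h in WT, 5 of 10 were higher (HDAC1, HDAC4, HDAC5, HDAC9 and SIRT2) where 42.2% of genes were. The same step in CBP had 9 of 10 higher, with 80.3% of all genes, and SIRT1 was the exception. The inhibitor effect differed between the times at 6 of 10 genes, with 41.5% of all genes in either direction.

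For H3K27ac 9 of the 10 genes passed the filter on low values (at least 200 bp in at least 2 of 8 libraries), and HDAC8 did not. HDAC1 passed it only through WT 60 h, HDAC3 only through WT libraries and SIRT1 only through 60 h libraries. A difference from the groups at or near 0 was thus bound up with that choice. With the inhibitor at 0 h, 3 of the 9 were lower (HDAC2, HDAC3 and HDAC9) where 32.6% of the 10294 genes tested were. At 60 h 3 of the 9 were lower (HDAC1, HDAC2 and HDAC3), with 45.8% of all genes. From 0 h to 60 h in WT, 4 of the 9 were higher (HDAC1, HDAC2, HDAC4 and SIRT2) where 46.8% of genes were, and HDAC9 was lower where 10.6% were. In CBP the same step had 3 of the 9 higher (HDAC2, HDAC4 and SIRT2), with 30.7% of all genes. The inhibitor effect differed between the times at HDAC1 and HDAC9, with 30.4% of genes in either direction.

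**Figure D5:**
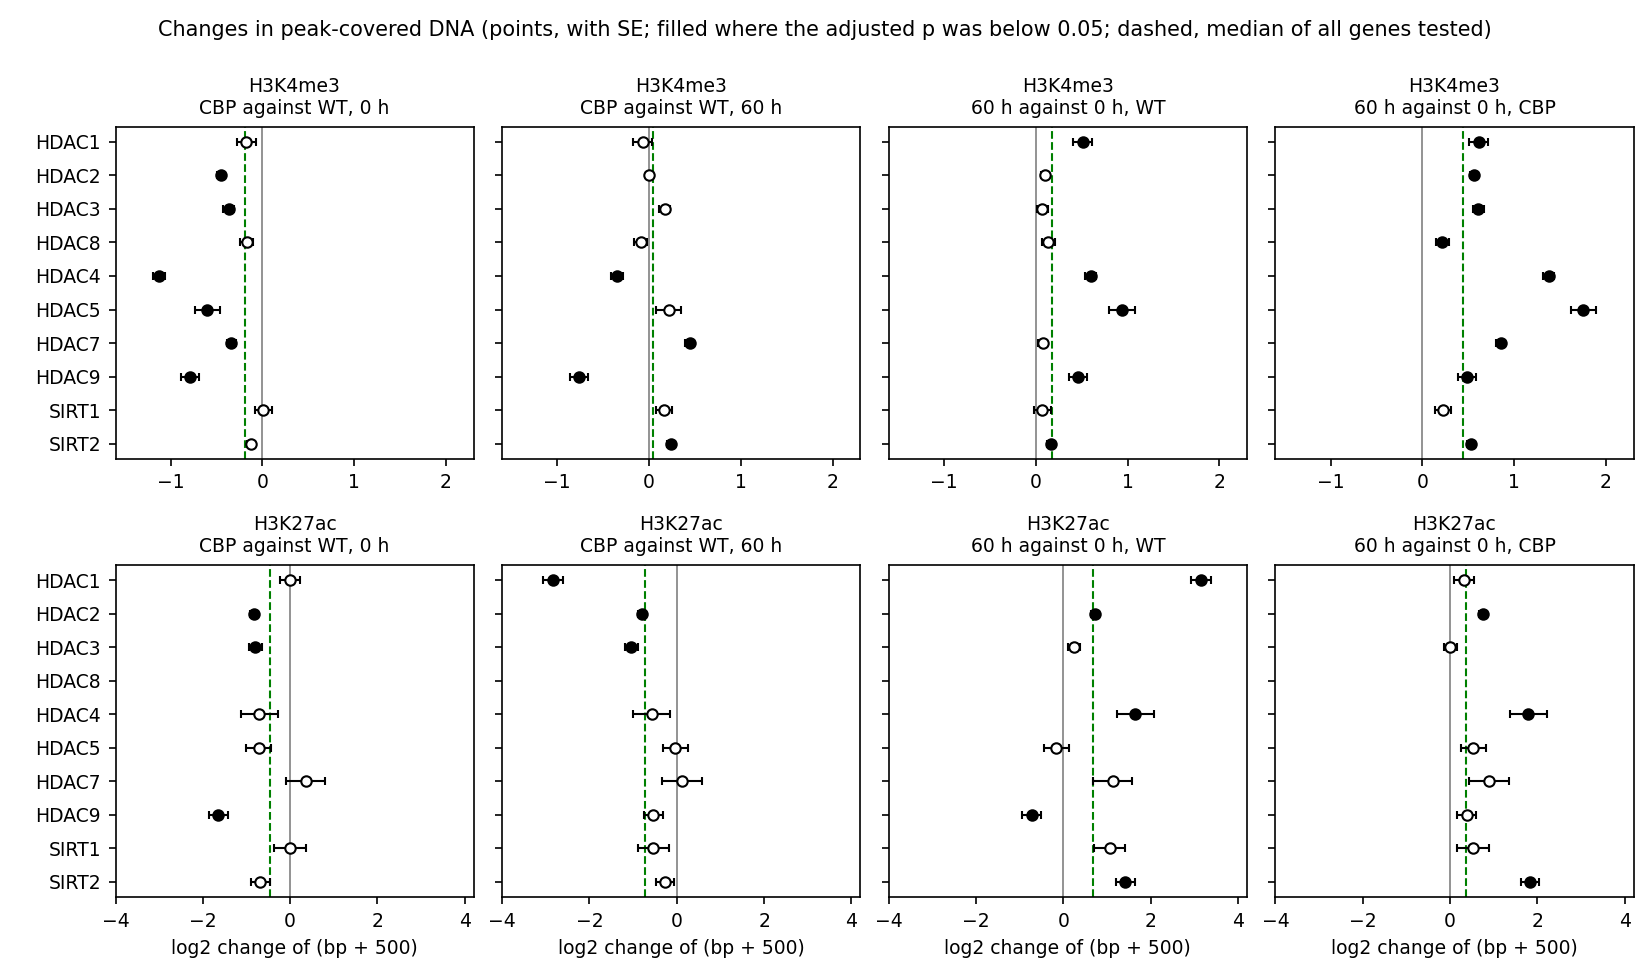
Log2 changes of peak length plus 500 bp (horizontal axis, with SE) for each gene in 4 comparisons of H3K4me3 (upper row) and H3K27ac (lower row), filled where the adjusted p was below 0.05, with the median of all genes as a dashed line. HDAC4 and HDAC9 lie left of the median in H3K4me3 in both inhibitor comparisons, and HDAC1 lies at -2.83 in H3K27ac at 60 h.

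Because so many genes moved one way, the direction of these calls depends on the scale. After quantile scaling the median of all genes for the inhibitor at 0 h went from -0.19 to 0.06 in H3K4me3 and from -0.46 to 0.08 in H3K27ac. The calls went from 160 higher and 5587 lower to 2143 higher and 1821 lower in H3K4me3, and from 144 higher and 3352 lower to 917 higher and 1598 lower in H3K27ac. From 0 h to 60 h in WT the median went from 0.18 to -0.07 in H3K4me3 (5653 higher and 783 lower, then 2431 and 3615) and from 0.69 to 0.01 in H3K27ac (4822 and 1093, then 2131 and 2149). For the inhibitor at 60 h in H3K27ac it went from -0.72 to 0.03 (312 higher and 4714 lower, then 1197 and 1381). From 0 h to 60 h in CBP it went from 0.44 to -0.08 in H3K4me3 (10754 and 169, then 2920 and 4674) and from 0.36 to -0.08 in H3K27ac (3158 and 824, then 2476 and 1750). For the difference of the inhibitor effects it went from 0.24 to -0.04 in H3K4me3 (5078 and 477, then 1471 and 1636) and from -0.16 to 0.06 in H3K27ac (1187 and 1946, then 1656 and 1230). On that scale the inhibitor at 0 h left H3K4me3 lower at HDAC2 (-0.24, adjusted p = 0.0108), HDAC4 (-0.82, adjusted p = 0.00097) and HDAC9 (-0.55, adjusted p = 0.0103), and H3K27ac lower at HDAC9 (-0.84, adjusted p = 0.00509). At 60 h H3K4me3 was lower at HDAC4 (-0.37, adjusted p = 0.0127) and HDAC9 (-0.80, adjusted p = 0.00306) and higher at HDAC7 (0.39, adjusted p = 0.00392) and SIRT2 (0.19, adjusted p = 0.028). H3K27ac at 60 h was lower at HDAC1 (-2.10, adjusted p = 0.00171) and higher at HDAC5 (0.83, adjusted p = 0.0319). From 0 h to 60 h in WT, H3K4me3 was higher at HDAC4 (0.39, adjusted p = 0.00489) and HDAC5 (0.71, adjusted p = 0.00663), and H3K27ac was higher at HDAC1 (2.28, adjusted p = 0.000327), HDAC4 (1.07, adjusted p = 0.0298) and SIRT2 (0.85, adjusted p = 0.02) and lower at HDAC3, HDAC5 and HDAC9 (-1.41, adjusted p = 0.000511).

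Between the classes, class IIa gave the larger H3K4me3 loss under the inhibitor in proliferation on the unscaled lengths. All 4 class IIa genes were called lower with a median log2 change of -0.69, against 2 of 4 class I genes with a median of -0.27 and 0 of 2 sirtuins. Over all genes 41.7% were lower and the median was -0.19, so the class I share lay near the background. After quantile scaling only HDAC4 and HDAC9 of class IIa and HDAC2 of class I stayed called lower. The unscaled HDAC5 call was also lost without either CBP 0 h library. The summed H3K4me3 length of class IIa (mean ± SD, n = 2 libraries) went from 9.77 ± 0.485 kb in WT 0 h to 5.40 ± 0.132 kb in CBP 0 h, and that of class I from 12.1 ± 0.200 kb to 9.50 ± 0.318 kb. At 60 h the sums of WT and CBP were 14.8 ± 0.0170 and 14.4 ± 0.245 kb for class IIa and 14.7 ± 0.835 and 14.9 ± 0.332 kb for class I. In H3K27ac at 60 h the order was the other way: 3 of 3 class I genes tested were lower (median -1.04) and 0 of 4 class IIa genes were (median -0.28), where 45.8% of all genes were lower and the median was -0.72. HDAC2 at -0.80 lay near that median, and HDAC1 and HDAC3 passed the filter only through groups without the inhibitor. The class I sum was 6.25 ± 0.987 kb in WT 60 h and 0.934 ± 0.180 kb in CBP 60 h. Of the former, 3.96 kb lay in the HDAC1 window, which takes in MARCKSL1. The class IIa sum was 14.9 ± 1.17 kb in WT 60 h and 11.2 ± 4.45 kb in CBP 60 h, where the 2 CBP libraries held 14.4 and 8.08 kb. As a share of the window, so that long and short genes can be set side by side, the median class I gene in WT 0 h had 7.85% under H3K4me3 and 0.765% under H3K27ac, and the median class IIa gene 2.45% and 0.995%. Genes of a class are not replicates, so these are descriptions.

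H3K27me3 was nearly absent from the deacetylase genes. HDAC9 alone had any, with 421 bp in one CBP 0 h library and 522 bp in the other, in 2 regions that did not overlap, 62.6 and 65.2 kb inside the gene. Their -log10 q values as deposited were 2.42 and 2.46. HDAC9 was 1 of the 10 to pass the filter, solely through CBP 0 h, so that it had to differ between that group and the others, and its calls are no evidence of a change. In CBP 0 h the H3K27me3 lists covered 29.9 ± 6.75 Mb against 2.11 ± 1.42 Mb in WT 0 h. HDAC9 was called higher in CBP at 0 h, as were 77.2% of the 4203 genes tested, and after quantile scaling, which took all genes from 3246 higher and 0 lower to 494 and 754, it was lower (-0.59, adjusted p = 0.0271). It was called lower from 0 h to 60 h in CBP, with 44.2% of genes lower, and its inhibitor effect differed between the times, with 56.9% of genes in either direction. Without either CBP 0 h library it no longer passed the filter. The other 9 genes had 0 bp in all 8 libraries.

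Genes that work with the deacetylases were read in 4 lists, each described by its counts. Of 8 other deacetylases, 5 were lower in H3K4me3 with the inhibitor at 0 h (median -0.36, 2 lower after quantile scaling), where 41.7% of all genes were. They were led by HDAC11 at -1.52 (adjusted p = 9.3e-05) and HDAC6 at -0.71 (adjusted p = 0.00048), and none was called at 60 h (median 0.12). HDAC11 is the class IV enzyme and HDAC6 a cytoplasmic tubulin deacetylase. In H3K27ac at 60 h, 4 of their 5 tested members were lower (median -1.46, 2 lower after quantile scaling), where 45.8% of all genes were, among them HDAC11 at -1.95 (adjusted p = 0.00707) and the mitochondrial sirtuin gene SIRT4 at -1.80 (adjusted p = 0.000115). Of 30 class I corepressor subunits in the table, 12 were lower and 1 higher in H3K4me3 with the inhibitor at 0 h (median -0.10), and after quantile scaling 2 were lower and 12 higher. From 0 h to 60 h in WT 12 were higher (median 0.20), and after quantile scaling 7 were higher and 8 lower. Both unscaled counts lay near the shares over all genes, 41.7% lower and 42.2% higher. The largest rise in WT was at RCOR2, a CoREST subunit, at 1.41 (adjusted p = 0.0016). RCOR2 was also the 1 called higher at 0 h, at 0.77 (adjusted p = 0.0185).

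Many partners of class IIa enzymes gained H3K4me3 with differentiation. Of 22 MEF2, kinase and 14-3-3 genes, 19 were tested in H3K4me3, and 13 were higher and none lower from 0 h to 60 h in WT (median 0.38, all genes 0.18), where 42.2% of all genes were higher. After quantile scaling 9 were higher and 1 lower. The largest rises were at CAMK2A, a CaM kinase subunit gene, at 1.99 (adjusted p = 0.000119), and MEF2C at 1.70 (adjusted p = 9.93e-05). Both were lower with the inhibitor at 60 h, CAMK2A by -1.10 (adjusted p = 0.00361) and MEF2C by -0.87 (adjusted p = 0.00394), in a list with 3 lower and 1 higher. At 0 h the same list had 9 lower and 2 higher, near the 41.7% of all genes lower, and after quantile scaling 2 lower and 5 higher. All 6 of its genes tested in H3K27me3 were higher in CBP at 0 h, with CAMK2B at 3.86 (adjusted p = 0.00183) and CAMK2A at 3.75 (adjusted p = 0.00533), where 77.2% of all genes were. After quantile scaling the median of these 6 was 0.27, and none was called. Of 10 histone acetyltransferase genes, which encode the opposing activity, 5 were lower in H3K4me3 at 0 h and 4 of 8 tested were lower in H3K27ac at 60 h, near the 41.7% and 45.8% of all genes. After quantile scaling these counts were 2 and 3. EP300, the gene of p300, was among the latter at -2.13 (adjusted p = 0.00011).

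HDAC1 had the widest range of H3K27ac among the 10, 3.15 on the log2 scale between the group means. The genes whose H3K27ac lengths followed it most closely over the 8 libraries, of 10285 candidates, included KIAA1614 and BGN, with root mean square distances of 0.053 and 0.235 log2. KIAA1614 had 4.59 and 3.86 kb in WT 60 h, 0.313 and 0 kb in CBP 60 h and none at 0 h. BGN, the gene of the proteoglycan biglycan, had 4.53 and 4.11 kb in WT 60 h and none in the other 6 libraries.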

How the data were processed

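CUT&Tag peak lists of 24 libraries in 12 groups of 2 were analysed. Per the submitters' processing notes, Trimmomatic, MACS2 2.1.0 and the build Sscrofa11.1 were used. Aligner, control library, options and depth: not given in the sources used here. No precision from depth can thus be stated. As deposited, the score column is a display score, the ratio column is the fold enrichment over local background, and the −log10 columns hold p and q values, each within its own library. Only positions were therefore compared between libraries, with −log10 p used to rank peaks within a list. Broad H3K27me3 and narrow H3K4me3 and H3K27ac lists were fitted apart.

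Peaks were merged per library (Python 3.11.15, pandas 2.3.3, numpy 2.4.6). Length under peaks per extended gene span was compared with limma 3.58.1 in R 4.3.3 (eBayes with trend and robust) on log2(bp + 500), for genes that reached 200 bp in 2 or more of the 8 libraries, with 4 residual degrees of freedom, and Benjamini-Hochberg adjustment over all genes within each of 5 contrasts. Calls are at an adjusted p below 0.05. An exact permutation test of 2 against 2 cannot go below 0.333 and was not used. Where both libraries of a group are at 0, log2 changes depend on the added 500 bp. The fit was tested on simulated data. Figures used matplotlib 3.10.9.

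The gene table gives no strand, so both gene ends were treated alike, and neighbours can share a window. Named genes were the 10 deacetylases, at most 4 genes per list (the called genes with the largest rise and fall) and the 3 nearest in H3K27ac pattern to the gene of widest range, 1 of which is not reported here. A planned search of promoter sequence was not carried out. The genes and lists were chosen with earlier results of these data known. Alternatives were quantile scaling, stricter or equal-length lists, other pseudocounts, no filter, a replicate block, other windows, plain eBayes, and leaving out each library.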

Additional observations from a re-analysis of the deposited data

Results flagged for a closer look

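The effect of SGC-CBP30 differed between 60 h and 0 h by the interaction test of the same limma fit at 6 of the 10 genes in H3K4me3. The effect at 60 h minus that at 0 h, on the log2 scale, was 0.46 at HDAC2 (adjusted p = 0.0025), 0.54 at HDAC3 (adjusted p = 0.00432), 0.78 at HDAC4 (adjusted p = 0.00179), 0.81 at HDAC5 (adjusted p = 0.0193), 0.78 at HDAC7 (adjusted p = 0.000872) and 0.36 at SIRT2 (adjusted p = 0.00643). All 6 are positive, as is the median of all genes, 0.24. At HDAC7 and SIRT2 the inhibitor difference was below 0 at 0 h and above 0 at 60 h. At SIRT2 the value at 0 h, -0.13, was not called, and in the gene span alone it was 0.20 (adjusted p = 0.0167). The difference between the times in the gene span alone was 0.12 at SIRT2 (adjusted p = 0.158) and 0.22 at HDAC3 (adjusted p = 0.159). The HDAC5 difference missed the threshold when any of 4 libraries was left out (adjusted p = 0.0575 to 0.065). After quantile scaling the difference stayed past the threshold at HDAC4 and HDAC7. The HDAC4 value was 0.01 (adjusted p = 0.965) in the gene span alone, which leaves out the region just past its high-coordinate end.

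In H3K27ac the difference was -2.83 at HDAC1 (adjusted p = 0.00254), where no base was listed at 0 h in either group and the filter was passed only through WT 60 h, and 1.11 at HDAC9 (adjusted p = 0.0432), where the loss was larger at 0 h. The HDAC9 value missed the threshold when any of 6 libraries was left out (adjusted p = 0.0784 to 0.151). In H3K27me3 the difference at HDAC9 was -0.96, from 421 and 522 bp in CBP 0 h and 0 bp elsewhere, in 2 regions that do not overlap. HDAC9 passed the filter through CBP 0 h alone, so this value is a description, with no test.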

How the results depend on the processing

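Of 49 called changes of the 10 genes, 13 kept their direction and call under every alternative that gave a value. They are HDAC1 H3K27ac in WT over time, under the inhibitor at 60 h and in the difference of its effects; HDAC2 H3K4me3 at 0 h; HDAC4 H3K4me3 at 0 h and over time in CBP; HDAC5 H3K4me3 over time in WT and in CBP; HDAC7 H3K4me3 over time in CBP and in the difference; and HDAC9 H3K27ac at 0 h and H3K4me3 at 0 h and 60 h. The HDAC1 H3K27ac calls among them belong to a gene that passed the filter only through WT 60 h, so they were bound up with that choice. Quantile scaling kept 24 of the 49, and 32 stayed both with peaks of a -log10 q of at least 5 and with lists of equal length. The unextended span kept 41, and the window at gene ends kept 35, lost 3 and reversed 1 of those with a value. A pseudocount of 100 bp kept 48, and a pseudocount of 2000 bp, no filter, plain eBayes and a 10 kb extension kept 49 each.

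The number of the 10 genes called moved as follows, with inhibitor at 0 h, inhibitor at 60 h, time in WT, time in CBP and the difference as the 5 comparisons. Quantile scaling gave 3 (from 6), 2 (from 5, time in WT), 4 (from 9, time in CBP) and 2 (from 6, the difference) in H3K4me3, 1 (from 3) at 0 h in H3K27ac, and in H3K27me3 1 (from 0) in WT, 0 (from 1) in CBP and 0 (from 1) in the difference. The stricter -log10 q gave in H3K27ac 1 (from 3) at 0 h and 1 (from 3) in CBP. Equal lists gave 1 (from 3) at 0 h, 1 (from 3) at 60 h, 3 (from 5) in WT and 0 (from 3) in CBP. Windows at gene ends gave 1 (from 4) at 60 h and 3 (from 5) in WT in H3K4me3, and 5 (from 3) at 60 h in H3K27ac. In these H3K27ac windows HDAC4 passed the filter only through WT 60 h and HDAC7 only through CBP 60 h. The unextended span gave 3 (from 6) in the H3K4me3 difference, and 5 (from 3) at 60 h and 4 (from 2) in the difference in H3K27ac. A 10 kb extension gave 2 (from 1) at 0 h in H3K27me3. For the stricter, equal-length and gene-end settings no deacetylase passed the H3K27me3 filter, so they gave no value there.

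Reversed changes were HDAC4 H3K4me3 at 60 h at gene ends, 0.11, and, after quantile scaling, SIRT2 H3K4me3 in WT, -0.0286, HDAC8 H3K4me3 in CBP, -0.35 (adjusted p = 0.00621), HDAC9 H3K27me3 at 0 h, -0.59, and its difference, 0.49. SIRT2 H3K27ac in WT was -0.0344 with the stricter -log10 q and -0.68 with equal lists (adjusted p = 0.237). The causes were not tested.

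Leaving out 1 library gave, in the order of the 5 comparisons, 5 to 7, 2 to 5, 2 to 5, 8 to 10 and 5 to 6 genes called in H3K4me3, and 2 to 4, 3 to 5, 3 to 7, 2 to 7 and 1 to 2 in H3K27ac. A lone library was assumed to vary like the other groups. In H3K27ac SIRT1 held no listed base at 0 h and passed the filter only through 60 h libraries, so its rise was bound up with that choice. In WT that rise, 1.05 log2, and that of HDAC7, 1.13 log2, kept their size without either CBP 60 h library, while their calls changed. The same 2 libraries decided HDAC5 at 0 h (adjusted p = 0.048 and 0.0485 without them). SIRT2 at 0 h passed without either WT 60 h library (adjusted p = 0.00954 and 0.00969).

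Over all genes, the lowest counts of calls, where over 1.5 times below the main count, were: H3K4me3 at 60 h, 2368 (1081 without the first WT 60 h library); its time change in WT, 6436 (4234 without that library); its difference, 5555 (3107 after quantile scaling); H3K27ac at 0 h, 3496 (1790 with equal lists), at 60 h, 5026 (2172 without the first WT 60 h library), in WT, 5915 (3266 without it), in CBP, 3982 (2334 with the stricter -log10 q), and difference, 3133 (1013 without the second WT 60 h library); and H3K27me3 at 0 h, 3246 (733 with equal lists), at 60 h, 619 (2 with the stricter -log10 q, and by limma 0, with 782 at an unadjusted p below 0.05, without the first CBP 60 h library), in WT, 905 (1 with the stricter -log10 q, 252 without the first WT 0 h library), in CBP, 2137 (932 with equal lists), and difference, 2393 (750 with equal lists).

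The replicate numbers in the labels are not stated to mark a shared culture or day. The differences between first and second libraries were correlated between groups across genes. The coefficients were -0.04 to 0.03 in H3K4me3, 0.005 to 0.04 in H3K27ac and -0.09 to 0.18 in H3K27me3. Such coefficients cannot show a shift common to all genes. In H3K27ac the first library had more peaks than the second in all 4 groups. The lists held 19531 and 17338 peaks in WT 0 h, 10972 and 8969 in CBP 0 h, 23437 and 21694 in WT 60 h, and 17019 and 13750 in CBP 60 h. With the replicate number as a block, 6, 4, 5, 9 and 6 genes were called in H3K4me3, 4, 4, 6, 3 and 2 in H3K27ac and 1, 0, 0, 1 and 1 in H3K27me3, and 49 of the 49 calls stayed. Depth is unknown and sets which peaks are listed, so a gene at 0 bp is one with no listed peak, and groups of 2 limit every comparison. Requiring a peak to cover 50% of a merged region gave 0 regions gained and 7 lost in H3K27ac with the inhibitor at 0 h.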
